A study of Homo sapiens with 6 samples.

Results

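The tropomyosin genes TPM1, TPM2, TPM3 and TPM4, together with the tropomodulin gene TMOD3, were described in human Huh7 liver cancer cells with a hairpin against TRIM15. The 5 genes were taken by name from a table of 58735 gene rows, and each name matched 1 row. All 5 reached the minimum level for testing, which 14847 genes reached. The group was put together with the rise of TPM4 in the same libraries already known, so its differences between shTRIM15 and shcontrol are given as a description and carry no test of their own.

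Tropomyosins are coiled-coil proteins that join end to end along the groove of the actin filament and set which other proteins, such as myosin motors and cofilin, reach it. Tropomyosin genes make several isoforms through alternative exons and, for some of the genes, alternative start sites. In nonmuscle cells different isoforms mark different filament populations, among them stress fibres. Tropomodulins bind both tropomyosin and actin and cap the slow-growing, pointed end of the filament; tropomodulin 3 is the widely expressed nonmuscle form.

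The series holds 6 RNA sequencing libraries of Huh7, an established hepatocellular carcinoma line grown in RPMI-1640 with fetal bovine serum. In 3 libraries, named shTRIM15, the cells carried a short hairpin RNA against TRIM15, a ubiquitin ligase of the tripartite motif family. In the other 3, named shcontrol, they carried a control hairpin. The comparison addresses how transcript levels differ once TRIM15 is reduced. The number of hairpins, their sequences, the time after their introduction and whether libraries of a group came from separate cultures are not given in the sources used here, so p-values measure only the spread between these libraries, which may be technical.

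Levels are FPKM, reads scaled to gene length and to library size, as the authors computed them. Whole reads recovered from these values summed to between 17332508 and 19556855 in shTRIM15 libraries and between 17715210 and 18217903 in shcontrol libraries. TRIM15 itself stood at 3.23, 2.11 and 2.51 FPKM in shTRIM15 replicates 1 to 3, against 5.17, 5.09 and 4.88 FPKM in shcontrol replicates 1 to 3. The shTRIM15 mean was 0.519 times the shcontrol mean, and the groups did not overlap. All 14 hepatocyte markers looked up were expressed, with a summed level of 1753 to 1789 FPKM in shTRIM15 and 1762 to 1803 FPKM in shcontrol. Smooth and striated muscle cells are the richest sources of tropomyosin. Of 10 smooth muscle and 13 striated muscle markers, 7 and 9 were under 0.5 FPKM in every library. The summed levels were 26.2 to 27.1 and 3.74 to 4.32 FPKM in shTRIM15, against 26.9 to 28.3 and 3.67 to 4.16 FPKM in shcontrol. The smooth muscle sum was made up mostly of SMTN, at 24.8 to 26.8 FPKM over all libraries. Only 3 smooth muscle and 3 striated muscle markers were high enough to be tested. None of those passed the threshold, where 19% of all genes tested did, and nothing is read from so few.

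The family members lie on 4 chromosomes (coordinates on GRCh38). TPM4 (ENSG00000167460) spans chr19:16067021-16103005 on the plus strand, TPM2 (ENSG00000198467) chr9:35681992-35690121 on the minus strand, and TPM3 (ENSG00000143549) chr1:154155304-154194648 on the minus strand. TPM1 (ENSG00000140416) spans chr15:63042632-63071915 and TMOD3 (ENSG00000138594) chr15:51829628-51947295, both on the plus strand. The 4 tropomyosin genes remain alike in sequence: their long reading frames shared between 73.5% (TPM1 and TPM3) and 79.3% (TPM2 and TPM4) of aligned bases. Even so, 0 stretches of 50 bases in the annotated transcripts of TPM1, TPM2, TPM4 and TMOD3 recurred in another tropomyosin gene or pseudogene, and 43 of 8935 such stretches (0.48%) recurred for TPM3, mainly in the pseudogene TPM3P8. At 100 bases, 0 stretches of any member recurred.

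TPM4 makes a long and a short kind of tropomyosin; its basic annotation holds 2 reading frames of 284 residues and 2 of 248 residues. The bases before its outer and its innermost RefSeq start are shown because TPM4 is the member with the large difference, and those before an inner start of TPM1 and of TPM3 because these genes were nearly level. The sequences are from RefSeq on GRCh38.p14, written 5′ to 3′ along the gene's strand and ending before the nearest annotated exon; capitals mark GC boxes (GGGCGG on either strand) and, in the outer TPM4 stretch, a CArG box, the element bound by serum response factor (SRF).
TPM4 outer start, chr19:16067307-16067506, plus strand: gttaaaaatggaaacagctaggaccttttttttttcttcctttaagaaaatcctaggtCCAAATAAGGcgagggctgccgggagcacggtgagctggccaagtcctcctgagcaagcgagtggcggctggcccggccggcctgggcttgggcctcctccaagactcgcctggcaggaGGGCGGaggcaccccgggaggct
TPM4 innermost start, chr19:16076766-16077015, plus strand: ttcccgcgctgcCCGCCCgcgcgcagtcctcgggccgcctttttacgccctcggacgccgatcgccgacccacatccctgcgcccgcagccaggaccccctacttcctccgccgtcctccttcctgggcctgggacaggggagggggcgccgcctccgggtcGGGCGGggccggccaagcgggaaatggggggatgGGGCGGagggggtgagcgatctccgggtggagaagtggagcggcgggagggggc
TPM1 inner start, chr15:63048239-63048438, plus strand: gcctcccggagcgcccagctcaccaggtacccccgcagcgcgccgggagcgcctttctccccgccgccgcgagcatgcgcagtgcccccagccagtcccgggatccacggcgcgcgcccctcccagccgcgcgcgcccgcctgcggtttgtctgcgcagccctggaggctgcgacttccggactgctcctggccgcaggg
TPM3 inner start, chr1:154183250-154183468, minus strand: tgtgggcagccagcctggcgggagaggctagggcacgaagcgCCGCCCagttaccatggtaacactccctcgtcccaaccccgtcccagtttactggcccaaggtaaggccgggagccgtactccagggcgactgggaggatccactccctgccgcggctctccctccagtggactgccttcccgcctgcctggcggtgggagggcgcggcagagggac
The CArG box reads CCAAATAAGG, lies at chr19:16067365-16067374 and begins 173 bases before the outer start. Across RefSeq promoters of 300 bases (250 before and 50 after a start), searched on both strands, 454 of 35116 (1.29%) held a CArG box. Of the 9 RefSeq promoters matched to the 5 members, 1 held it; starts further upstream, which GENCODE annotates for TPM1, TPM3 and TPM4, were not analysed here. A GC box was in all 9, and in 44.95% of all promoters. Motifs of TEAD, AP-1 and FOXO factors and the TATA box were searched too, and none of the 9 held them. The CArG box is thus 1 match from a search of several motifs over 9 promoters. A match is a description of the letters, not evidence that a factor binds there, and the gene-level table does not show which TPM4 start was used.

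TPM4 was the member with the largest difference. It had 150.2, 149.4 and 149.9 FPKM in shTRIM15 replicates 1 to 3, against 87.6, 86.4 and 87.4 FPKM in shcontrol replicates 1 to 3. The shTRIM15 libraries were all higher, and the gap between the groups was far wider than the spread inside either. The reads behind these values were 24454, 25487 and 22705 in shTRIM15 and 13670, 13156 and 13690 in shcontrol. The means were 149.8 ± 0.379 FPKM in shTRIM15 and 87.1 ± 0.665 FPKM in shcontrol (SD, n = 3 each), a ratio of 1.72. The fitted log2 fold change was 0.78 (SE 0.0164, 95% interval 0.74 to 0.81). Ordered from the highest fitted change to the lowest, falls last, it stood at rank 40 among the 14847 genes tested and at rank 8 among the protein-coding ones. In bulk RNA, more transcripts per cell and more cells that carry them cannot be told apart. A transcript model on the opposite strand, AC008894.3, shares 829 exon bases with TPM4; it stood at 0.588 to 0.701 FPKM in shTRIM15 and 0.535 to 0.767 FPKM in shcontrol, ranges that overlap.

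**Figure D1:**
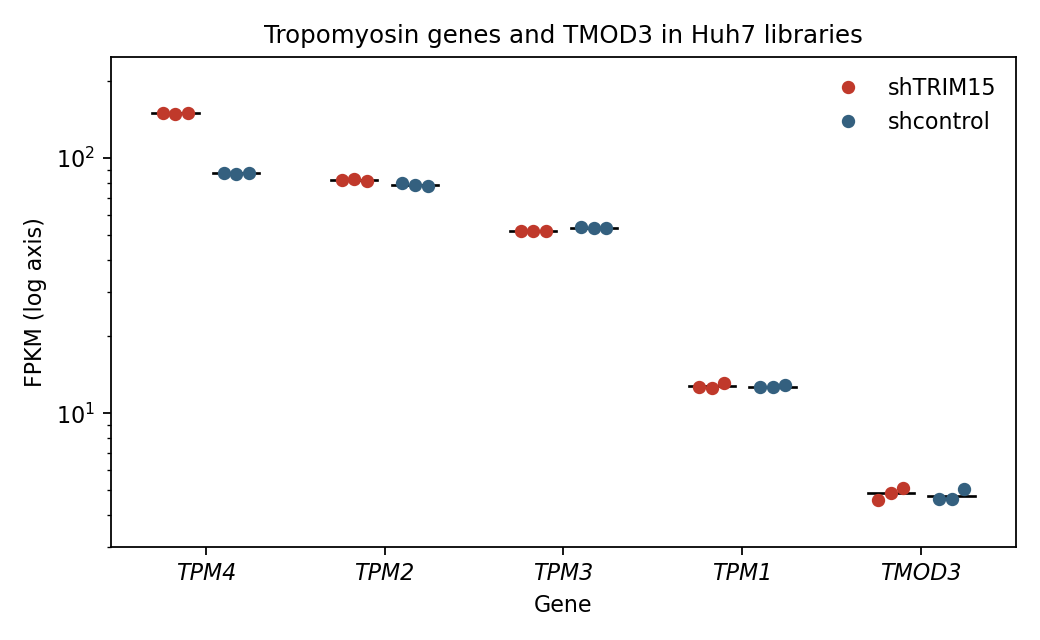
FPKM of the 5 genes on a log axis, with 1 point for each library (shTRIM15 left and red, shcontrol right and blue) and a black line at each group's mean. TPM4 stands at 149.4 to 150.2 FPKM in shTRIM15 and 86.4 to 87.6 FPKM in shcontrol, while the paired points of the other 4 genes lie close together.

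TPM2 encodes beta-tropomyosin, found in muscle and in stress fibres of other cells; the 6 reading frames in its basic annotation are all 284 residues long. It stood at 82.4, 82.6 and 81.2 FPKM in shTRIM15 and at 80.2, 78.3 and 77.7 FPKM in shcontrol. The shTRIM15 libraries were all higher, by a small margin: the means were 82.1 ± 0.765 FPKM in shTRIM15 and 78.7 ± 1.31 FPKM in shcontrol (SD, n = 3 each), a ratio of 1.04. The log2 fold change was 0.06 (95% interval 0.01 to 0.11) and was not called. In 3 alternatives it was called: 0.09 with every library rescaled to the same FPKM sum, 0.06 with quantile scaling and 0.08 with voom on whole reads. Its 95% interval spanned 0 without a variance trend (-0.02 to 0.13), without shTRIM15 replicate 1 or 2 and without shcontrol replicate 2 or 3. The sum over all genes was 283626 to 285276 FPKM in shTRIM15 and 288339 to 292591 FPKM in shcontrol.

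TPM3 makes short isoforms that most nonmuscle cells carry, and a slow-muscle long form. It had 51.6, 51.7 and 51.7 FPKM in shTRIM15, against 53.7, 53.04 and 53.2 FPKM in shcontrol. Here the shTRIM15 libraries were the lower ones, and the groups did not overlap. The means were 51.7 ± 0.0496 FPKM in shTRIM15 and 53.3 ± 0.335 FPKM in shcontrol (SD, n = 3 each), a ratio of 0.97, with a log2 fold change of -0.04 (95% interval -0.09 to -0.001) that was not called. Under the same FPKM sum per library it was -0.01.

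TPM1 encodes alpha-tropomyosin, the main striated muscle form, which also makes long and short nonmuscle isoforms. Its levels were 12.7, 12.6 and 13.2 FPKM in shTRIM15 and 12.6, 12.7 and 12.9 FPKM in shcontrol, so the groups overlapped. The means were 12.8 ± 0.316 FPKM in shTRIM15 and 12.7 ± 0.119 FPKM in shcontrol (SD, n = 3 each). The log2 fold change was 0.01 with a 95% interval of -0.06 to 0.08, and its sign was not fixed: it was -0.01 without shTRIM15 replicate 3 and -0.003 with quantile scaling. The antisense gene TPM1-AS, which shares 2070 exon bases with it, stood at 0.032 to 0.075 FPKM in shTRIM15 and 0.082 to 0.152 FPKM in shcontrol; the sources used here do not state whether the authors counted by strand.

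TMOD3 was the lowest of the 5, at 4.56, 4.89 and 5.11 FPKM in shTRIM15 against 4.60, 4.62 and 5.03 FPKM in shcontrol. The groups overlapped, with means of 4.85 ± 0.276 FPKM in shTRIM15 and 4.75 ± 0.243 FPKM in shcontrol (SD, n = 3 each). The log2 fold change was 0.03 (95% interval -0.10 to 0.15), the widest interval among the members, and -0.006 without shTRIM15 replicate 3. Between 866 and 1027 reads per library lay behind these values.

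Counted together, 1 of the 5 genes passed the threshold (limma, adjusted p under 0.05), where 19% of all genes tested did. That 1 was higher in shTRIM15, where 8.93% of all genes tested were called higher, and 0 of 5 were called lower, where 10.1% were. The groups did not overlap in 3 of the 5 (TPM4, TPM2 and TPM3), beside 37.8% of all genes tested. Because the group was chosen with these differences known, nothing is read from these shares.

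**Figure D2:**
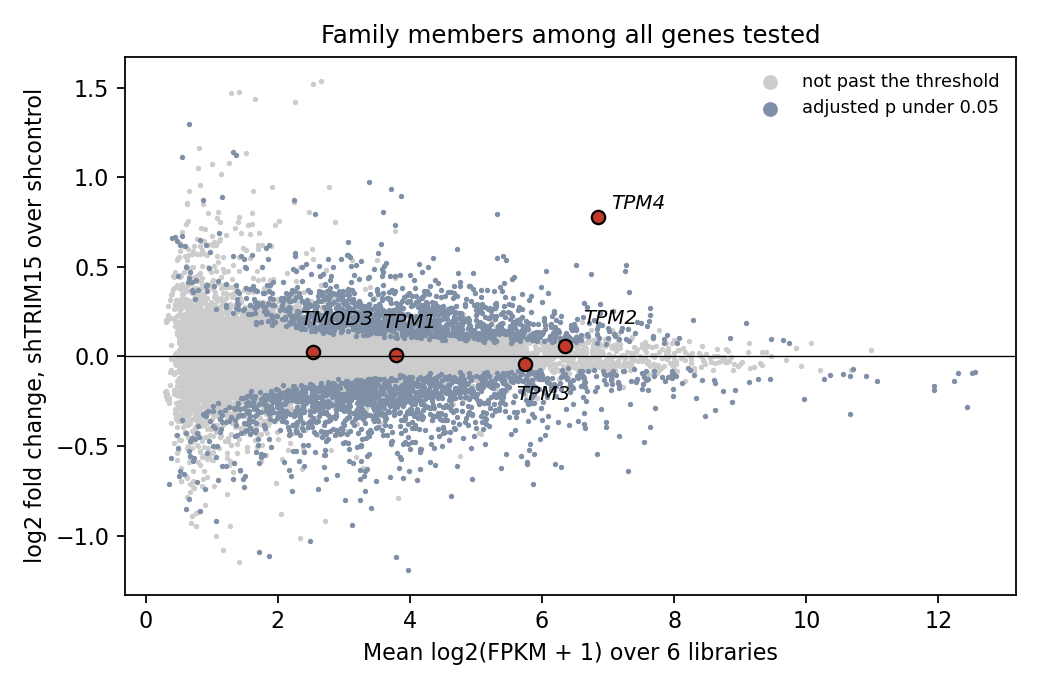
log2 fold change (shTRIM15 over shcontrol) against mean log2(FPKM + 1) for the 14847 genes tested, in light grey or, past the threshold, in blue-grey, with the 5 members as labelled red points. TPM4 stands at 0.78, above the other points near its mean level, and the other 4 members lie between -0.04 and 0.06.

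The libraries of a group agreed closely for the abundant members. For TPM4 the coefficient of variation was 0.253% in shTRIM15 and 0.763% in shcontrol, where counting alone would give 0.643% and 0.86%. For TPM3 it was 0.096% in shTRIM15 and 0.629% in shcontrol, beside 1.11% and 1.12% from counting. For both genes the spread lay under that from counting, so their SDs may understate the error. TMOD3, with the fewest reads, varied most, by 5.69% in shTRIM15 and 5.12% in shcontrol, beside 3.22% and 3.32% from counting.

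**Figure D3:**
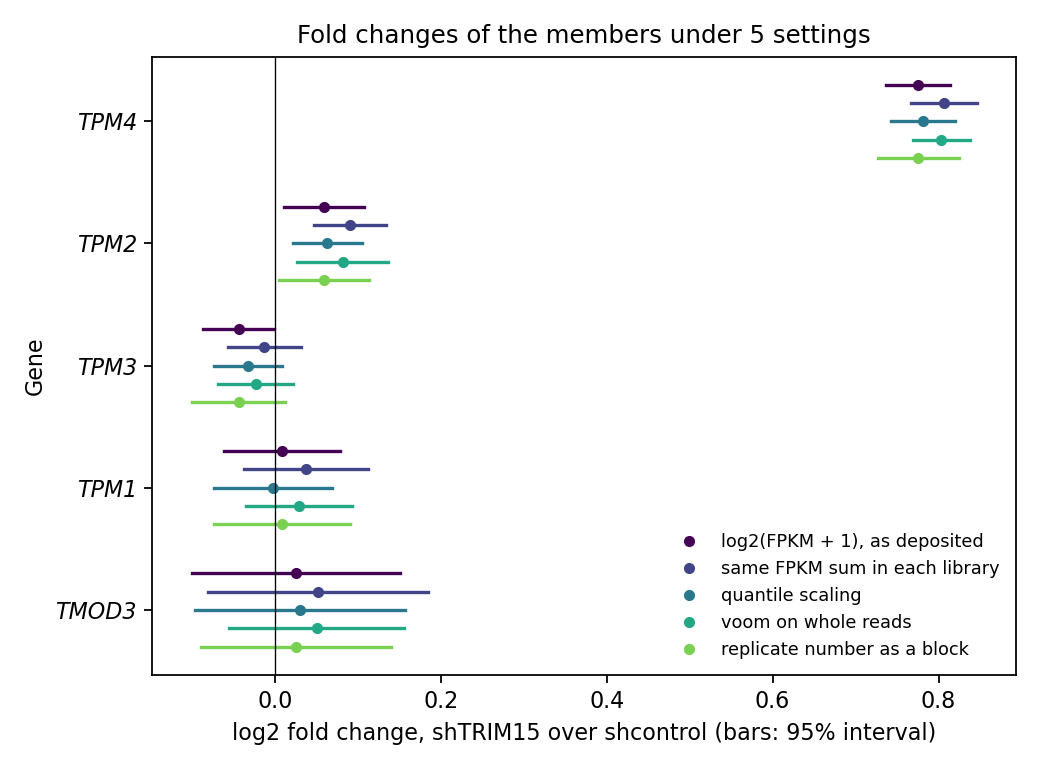
log2 fold change of each member (shTRIM15 over shcontrol) with its 95% interval under 5 settings (as deposited, same FPKM sum, quantile scaling, voom and the replicate number as a block), 1 colour for each. TPM4 lies between 0.78 and 0.81 in all 5, the interval of TPM2 lies above 0 in these 5, and those of TPM1 and TMOD3 span 0 in all 5.

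The order of levels was the same in all 6 libraries: TPM4, TPM2, TPM3, TPM1 and TMOD3, each pair of neighbours further apart than the spread of either. FPKM divides by the merged length of all annotated exons, which is 3248 bases for TPM2 and 12876 bases for TPM1, much longer than a single transcript. Rescaled to the median length of the basic protein-coding transcripts, a choice made after seeing the data, levels in FPKM units became 522.9 ± 1.32 for TPM4, 244.9 ± 0.235 for TPM3, 225.1 ± 2.1 for TPM2, 150 ± 3.7 for TPM1 and 6.25 ± 0.356 for TMOD3 in shTRIM15 (SD, n = 3). In shcontrol they became 304.1 ± 2.32 for TPM4, 252.6 ± 1.59 for TPM3, 216.0 ± 3.59 for TPM2, 149.0 ± 1.4 for TPM1 and 6.12 ± 0.313 for TMOD3 (SD, n = 3). TPM2 and TPM3 thus change places with the length used, whereas TPM4 stays first and TMOD3 last under both.

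The make-up of the tropomyosin transcripts shifted toward TPM4. Its share of the summed FPKM of the 4 tropomyosin genes was 50.6, 50.4 and 50.6% in shTRIM15 replicates 1 to 3 and 37.4, 37.5 and 37.8% in shcontrol replicates 1 to 3, a difference of 12.98 percentage points between means. The shares of the other genes were lower to match: TPM2 held 27.7% ± 0.228 in shTRIM15 and 33.95% ± 0.325 in shcontrol (SD, n = 3 each). TPM3 held 17.4% ± 0.0464 in shTRIM15 and 23.0% ± 0.0539 in shcontrol, and TPM1 4.32% ± 0.111 in shTRIM15 and 5.49% ± 0.0837 in shcontrol. Shares within a library must sum to a fixed whole, so these lower shares follow from the TPM4 share and are no separate result. In absolute terms TPM1, TPM2 and TPM3 together came to 146.6 ± 0.424 FPKM in shTRIM15 and 144.8 ± 1.52 FPKM in shcontrol, a ratio of 1.01. With TPM4 included the sums were 296.4 ± 0.508 FPKM in shTRIM15 and 231.9 ± 1.98 FPKM in shcontrol, a ratio of 1.28 (SD, n = 3 each). The ratio of TPM4 to TPM2 was 1.83 ± 0.0185 in shTRIM15 and 1.11 ± 0.0166 in shcontrol.

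**Figure D4:**
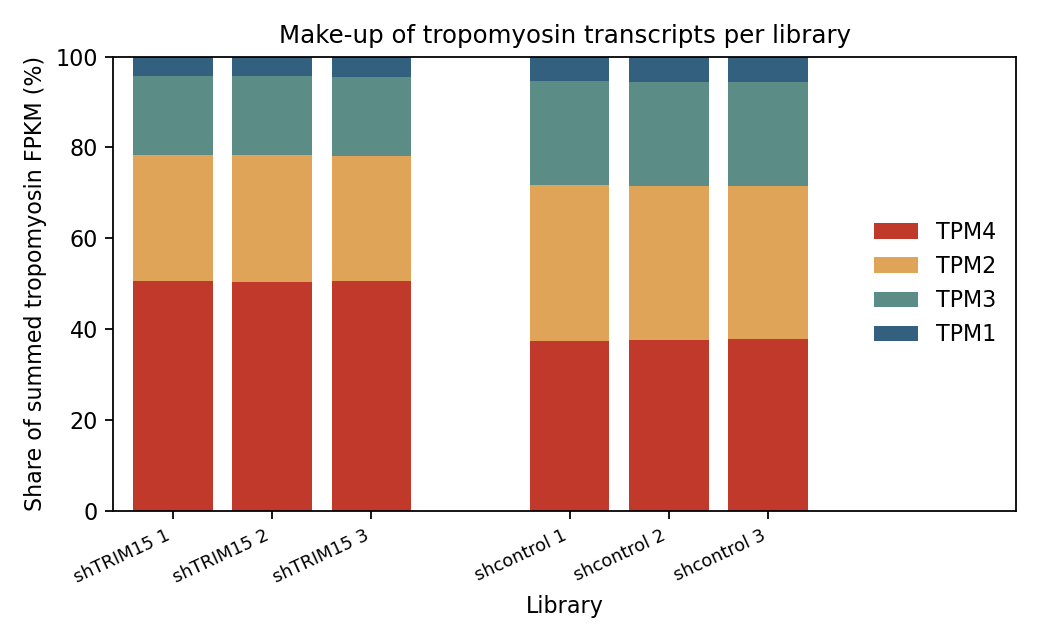
Share (%) of each tropomyosin gene in the summed tropomyosin FPKM of a library, as stacked bars from 0 to 100%, with the 3 shTRIM15 libraries left of the 3 shcontrol libraries. The TPM4 segment reaches 50.4 to 50.6% in shTRIM15 and 37.4 to 37.8% in shcontrol.

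Relatives of the members were mostly near silence. TMOD1, the tropomodulin of red cells and muscle, had 0.214, 0.273 and 0.215 FPKM in shTRIM15 against 0.283, 0.535 and 0.505 FPKM in shcontrol, below the level required for testing. TMOD2 was under 0.1 FPKM in every library, TMOD4 and LMOD3 were listed at 0 in all 6, and 0 of the 6 tropomodulin and leiomodin relatives could be tested. Of the pseudogenes, TPM3P9 stood at 4.29 ± 0.425 FPKM in shTRIM15 and 3.94 ± 0.385 FPKM in shcontrol, and TPM3P6 at 1.72 ± 0.163 FPKM in shTRIM15 and 1.10 ± 0.327 FPKM in shcontrol (SD, n = 3 each). Neither was called, and because TPM3P6 shares 369 of its 693 stretches of 50 bases with TPM3P9, their reads may be divided between them. TPM3P6 rests on few reads: 25, 27 and 20 in shTRIM15 and 19, 10 and 15 in shcontrol.

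The genes whose profile over the 6 libraries lay nearest to that of TPM4, by the root mean square difference of mean-centred log2(FPKM + 1), were NOLC1, TUFT1, TMEM216, HABP4 and BICD2. The nearest, NOLC1, a nucleolar phosphoprotein, differed by 0.0126 and had 51.5, 50.9 and 51.9 FPKM in shTRIM15 against 29.5, 28.8 and 29.3 FPKM in shcontrol. TUFT1, the gene of tuftelin, was further off at 0.0445, with 16.1, 16.2 and 17.5 FPKM in shTRIM15 and 9.80, 9.57 and 9.36 FPKM in shcontrol. TMEM216, a ciliary transition zone protein (0.0692), HABP4, an intracellular hyaluronan-binding protein (0.0727), and BICD2, a dynein adaptor (0.0761), came next. HABP4 shares 1096 exon bases with CDC14B on the opposite strand, so the source of reads there is uncertain; CDC14B stood at 4.36 to 4.96 FPKM in shTRIM15 and 4.98 to 5.49 FPKM in shcontrol. The other members, with log2 fold changes of -0.04 to 0.06, were not among these 5. This follows from the measure, which takes in the difference between the groups, and is no separate result. For the other members the nearest genes were themselves nearly level: CAVIN1, a caveolar coat protein, for TPM1 (0.00747), ALDH18A1, an enzyme of proline synthesis, for TPM2 (0.00847), FADS1, a fatty acid desaturase, for TPM3 (0.0068) and AGTRAP for TMOD3 (0.011). This likeness is a description of 6 libraries and carries no statement on shared function.

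The genes that act on the same filaments were taken from 11 lists chosen by function. The choice was made with earlier results of these data known, so the shares are a description. The lists held 139 genes in all, of which 115 were tested. Of these, 18 were higher and 24 lower past the threshold, 36.5% beside 19% of all genes tested, and their median log2 fold change was 0.004 beside 0.0014. With every library rescaled to the same FPKM sum the split was 24 higher and 20 lower. Filament genes are abundant: 61.7% of the 115 averaged at least 10 FPKM, against 30.6% of all genes tested. At or above that level, a limit chosen after seeing the data, 43.7% of the companion genes and 35.7% of all genes were called. All calls in the lists are by limma with p-values adjusted over every tested gene (Benjamini-Hochberg), and values are means ± SD over 3 libraries.

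The list that held the widest rises was SRF and its cofactors, and the widest were those of CCN1 and CCN2. In the list 4 of 10 rose, 0 fell and the median log2 fold change was 0.13. That is 40% called, beside 19% of all genes tested. SRF, the transcription factor that binds CArG boxes, stood at 15.4 ± 0.617 FPKM in shTRIM15 and 12.3 ± 0.612 FPKM in shcontrol (log2 fold change 0.31, adjusted p = 0.00479). Its partner ELK1, an ETS factor, stood at 19.3 ± 0.353 FPKM in shTRIM15 and 15.2 ± 0.521 FPKM in shcontrol (0.33, adjusted p = 0.00118). The matricellular genes CCN1 and CCN2, which respond to SRF and to YAP with TEAD factors, were listed with them. CCN1 stood at 107.8 ± 2.17 FPKM in shTRIM15 and 75.3 ± 3.25 FPKM in shcontrol (0.51, adjusted p = 0.000287), and CCN2 at 123.9 ± 2.27 FPKM in shTRIM15 and 89.96 ± 1.93 FPKM in shcontrol (0.46, adjusted p = 0.000164). The actin-sensing coactivator MRTFA, named after its values were seen, had 10.1 ± 0.169 FPKM in shTRIM15 and 8.98 ± 0.560 FPKM in shcontrol and was not called (0.16, adjusted p = 0.0546). MRTFB, ELK3, ELK4, FHL2 and MYOCD were not called either. The 4 calls held under every alternative but a minimum log2 fold change of 1. The list had 5 calls, all higher, with a filter at a mean of 1 FPKM, the same FPKM sum in each library or quantile scaling. It also had 5, all higher, with voom or without shcontrol replicate 3.

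The list of severing and disassembly factors also holds kinases and phosphatases that act on cofilin. It had the most calls, 6 higher and 6 lower of 19 tested (63.2%, beside 19% of all genes tested). Among the 6 rises, LIMK1, TESK1, SSH1 and SSH3, named after their values were seen, are such kinases and phosphatases. CFL2, the muscle-type cofilin, showed the widest fall of any companion gene, with 6.70 ± 0.462 FPKM in shTRIM15 and 11.9 ± 0.293 FPKM in shcontrol (log2 fold change -0.75, adjusted p = 0.000284). CFL1, the main nonmuscle cofilin, had 88.1 ± 0.856 FPKM in shTRIM15 and 87.5 ± 1.17 FPKM in shcontrol and was not called; it was named after its values were seen. WDR1, which speeds disassembly by cofilin, rose to 60.9 ± 0.339 FPKM in shTRIM15, against 51.1 ± 0.915 FPKM in shcontrol (0.25, adjusted p = 0.000635), and CORO1B rose by 0.15 (adjusted p = 0.0102). CAP2, a cyclase-associated actin recycling protein, fell by 0.18 (adjusted p = 0.0087). The 12 calls came to 5 without shTRIM15 replicate 2 or 3 and to 7 without any 1 of the other 4 libraries or without a variance trend, and CFL2, WDR1, CORO1B and CAP2 were called each time.

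Among capping and monomer-binding genes 0 rose and 4 of 11 fell: TWF1, a twinfilin, with 22.6 ± 0.878 FPKM in shTRIM15 and 29.6 ± 0.611 FPKM in shcontrol (log2 fold change -0.38, adjusted p = 0.000797), the thymosin TMSB10 (-0.32, adjusted p = 0.00278), the profilin PFN2 (-0.16, adjusted p = 0.00816) and the barbed-end capping subunit CAPZA1 (-0.14, adjusted p = 0.00822). With quantile scaling TMSB10 was at -0.16. All 4 were called under each alternative but the minimum log2 fold change of 1. With the same FPKM sum in each library the list had 5 calls, 1 higher and 4 lower. As deposited, 36.4% of the list was called, beside 19% of all genes tested.

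Nucleators moved both ways. Of the formins and other nucleators tested 27.3% were called, and of the Arp2/3 list 31.6%, beside 19% of all genes tested. Of 11 formins and other nucleators, DIAPH3 (log2 fold change -0.41, adjusted p = 0.00298) and DAAM1 (-0.34, adjusted p = 0.00499) fell and DIAPH1 rose (0.13, adjusted p = 0.0138); DIAPH1 lost its call without shTRIM15 replicate 2 (adjusted p = 0.0532) or 3 (adjusted p = 0.0553), or without a variance trend (adjusted p = 0.0528). Of 19 genes of the Arp2/3 complex and its activators, 3 rose and 3 fell, against 6 higher and 3 lower with voom and 4 higher and 2 lower with the same FPKM sum in each library. The complex subunit ARPC5 had 18.3 ± 0.486 FPKM in shTRIM15 and 22.97 ± 0.368 FPKM in shcontrol (-0.32, adjusted p = 0.000866), whereas the subunit ARPC4 had 41.1 ± 0.217 FPKM in shTRIM15 and 35.4 ± 1.63 FPKM in shcontrol (0.21, adjusted p = 0.00769). In the WAVE complex, which activates it, NCKAP1 fell by 0.25 (adjusted p = 0.00349) and BRK1 rose by 0.16 (adjusted p = 0.00473).

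Nonmuscle myosin II and its regulators gave 1 higher and 3 lower of 17. That is 23.5% called, near the 19% of all genes tested, so nothing is read from the count. PPP1R12A, the targeting subunit of myosin phosphatase, fell to 3.61 ± 0.0838 FPKM in shTRIM15, against 4.97 ± 0.229 FPKM in shcontrol (log2 fold change -0.37, adjusted p = 0.00246). The GTPase RHOB rose by 0.22 (adjusted p = 0.0082) and RHOA fell by 0.09 (adjusted p = 0.00968), or by 0.06 with the same FPKM sum in each library; without a variance trend its adjusted p was 0.0912. The light chain MYL12B fell by 0.13 (adjusted p = 0.0137), a call lost without shTRIM15 replicate 3 (adjusted p = 0.0509) or a variance trend (adjusted p = 0.0663); reads of MYL12B and its near-identical neighbour MYL12A may be divided. The 4 calls came to 2 without a variance trend and to 7 with voom.

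Crosslinkers and stress fibre proteins gave 2 higher and 6 lower of 19, with a median log2 fold change of -0.06. That is 42.1% called, beside 19% of all genes tested. PDLIM5 fell to 18.9 ± 0.151 FPKM in shTRIM15, against 22.2 ± 0.477 FPKM in shcontrol (-0.22, adjusted p = 0.00227). LIMA1, which bundles filaments, fell by 0.28 (adjusted p = 0.00271). The plastins PLS1 and PLS3 fell by 0.29 (adjusted p = 0.00476) and 0.14 (adjusted p = 0.00417). The 8 calls came to 5 (0 higher) without shTRIM15 replicate 2 or 3 or without the filter on low values, to 4 (0 higher) without a variance trend, and to 6 higher and 6 lower with voom. The 2 rises, ACTN1 and ZYX, chosen after their values were seen, lost their calls in 9 and 8 of the alternatives.

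Direct partners of tropomyosin that could be tested differed little between the groups. With 19% of all genes tested called, nothing is read from 0 calls in lists this short. Of caldesmon, calponins and transgelins 0 of 5 tested were called, with CALD1, named after its values were seen, at 78.3 ± 1.64 FPKM in shTRIM15 and 78.1 ± 2.27 FPKM in shcontrol. By limma 1 of the 5 had an unadjusted p under 0.05, and voom called 0. The fold changes ran from -0.07 to 0.12 on the log2 scale. Of the troponins, the calcium switch of striated muscle, 2 of 8 were tested and 0 called by limma or voom, with 0 at an unadjusted p under 0.05. Of 6 actins the 2 cytoplasmic ones were tested. ACTB had 872.6 ± 3.87 FPKM in shTRIM15 and 828.97 ± 2.998 FPKM in shcontrol (log2 fold change 0.07, adjusted p = 0.011), which became 0.03 and was not called with quantile scaling (adjusted p = 0.198), and was not called without the filter on low values (adjusted p = 0.161) or a variance trend (adjusted p = 0.137) either. ACTG1 had 554.9 ± 4.74 FPKM in shTRIM15 and 579.3 ± 10.6 FPKM in shcontrol and was not called, except with voom, quantile scaling or without shcontrol replicate 3. ACTB, ACTG1 and TMSB10 have many near-identical pseudogene copies, so their reads are uncertain.

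**Figure D5:**
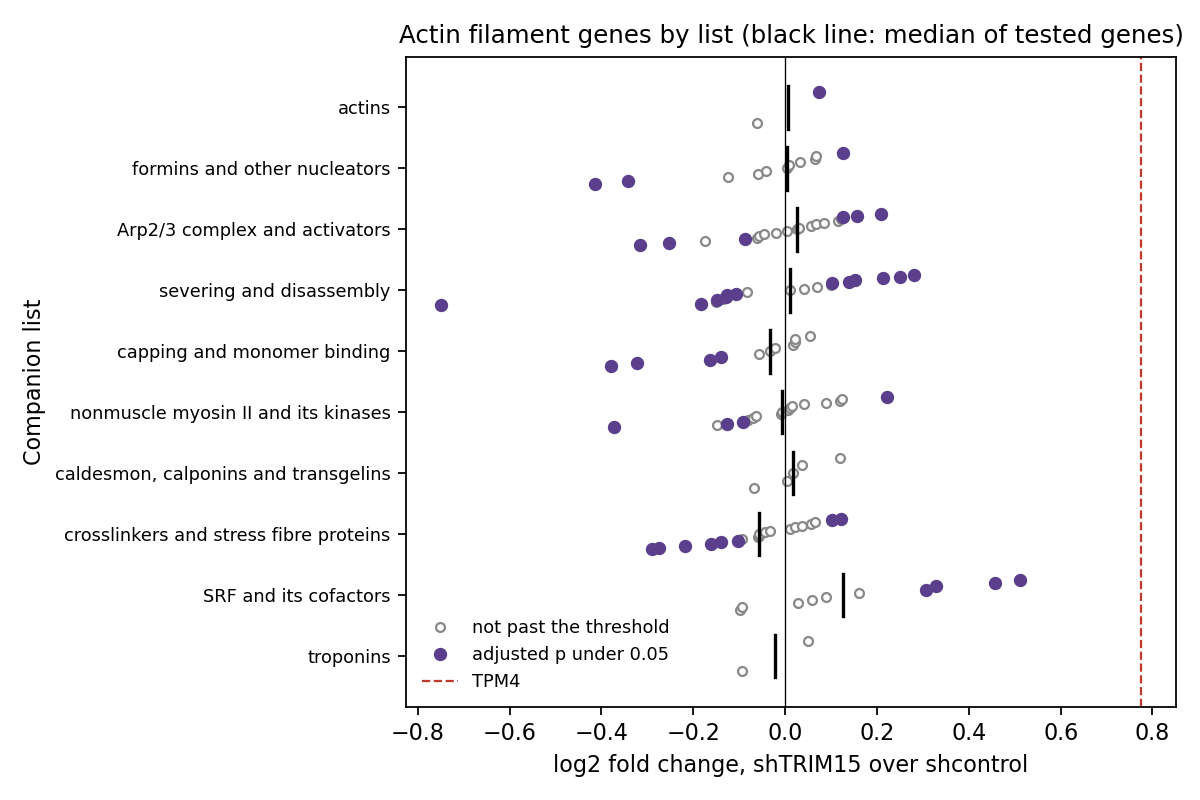
log2 fold change (shTRIM15 over shcontrol) of the 115 tested companion genes by list, filled where past the threshold and open otherwise, with each list's median as a black line and TPM4 as a dashed red line at 0.78. The points run from -0.75 (CFL2) to 0.51 (CCN1), all left of TPM4, and the median of SRF and its cofactors, 0.13, is the one furthest from 0.

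Markers of other cell types were read beside these genes. Of 10 fibroblast markers, whose cells are rich in stress fibres, 6 were under 0.5 FPKM in all libraries. Of the 4 tested, 2 were called lower, LUM and COL1A2. LUM had 51.9, 50.8 and 49.4 FPKM in shTRIM15 and 55.9, 57.1 and 59.7 FPKM in shcontrol (log2 fold change -0.18, adjusted p = 0.00931 by limma). The summed fibroblast level was 57.5 to 60.2 FPKM in shTRIM15 and 64.6 to 68.2 FPKM in shcontrol, a sum made up mostly of LUM, and its part in the family's and the companion genes' values was not tested. COL1A1 and PDGFRA were not called (log2 fold changes 0.01 and -0.01). COL3A1, too low to test, had 0.293 to 0.312 FPKM in shTRIM15 and 0.170 to 0.233 FPKM in shcontrol. Of 7 endothelial and 8 immune markers, 7 and 6 were under 0.5 FPKM throughout. Of the 14 hepatocyte markers, all tested, 3 were called lower: FGB, FGG and TF. Over all genes tested 10.1% were called lower and 19% in either direction, so nothing is read from these marker counts.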

How the data were processed

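RNA was made into libraries with a directional kit after mRNA enrichment, per the labels. The authors deposited FPKM per gene for 3 shTRIM15 and 3 shcontrol libraries. The aligner, the counting and the use of strand are not given in the sources used here. The submitters' processing notes list build mm10, a mouse build, but all 58735 rows equal human GENCODE 29 genes (GRCh38) in identifier, position and merged exon length. FPKM times length gave whole reads for 100% of values (tolerance 0.01).

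Tests used log2(FPKM + 1), on which changes of low genes come out too small. Genes with at least 0.5 FPKM in 3 of 6 libraries were fitted with limma 3.58.1 in R 4.3.3 (group only, variance trend, two-sided, Benjamini-Hochberg over all genes tested, threshold 0.05); the script was tested on simulated data. Sequences came from RefSeq promoters. Named genes were all members, their pseudogenes and relatives, up to 4 called genes per companion list by adjusted p, and the 5 nearest profiles. The members and lists were chosen with earlier results of these data known. Alternatives changed the pseudocount, filter, scaling, variance model, replicate block, libraries and gene length, and used voom on whole reads.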

Additional observations from a re-analysis of the deposited data

How the results depend on the processing

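TPM4 kept its direction and its call under every alternative except a minimum log2 fold change of 1, and its log2 fold change ran from 0.77 to 0.81. The number of members called was 2 with the same FPKM sum in each library, with quantile scaling and with voom on whole reads (TPM2 being added, at 0.09, 0.063 and 0.082), and 0 with a minimum log2 fold change of 1. TPM1 turned to -0.003 with quantile scaling and to -0.01 without shTRIM15 replicate 3, and TMOD3 to -0.006 without shTRIM15 replicate 3; with 1 library left out they ran from -0.01 to 0.021 and from -0.006 to 0.062, and the cause was not tested. Over all genes, 2824 calls became 4186 with voom, 1888 with no filter, 9 with a minimum log2 fold change of 1, and 1770 to 2339 with 1 library left out (1869, 1871 and 1770 without shTRIM15 replicate 1, 2 and 3). With the same FPKM sum in each library, 1889 were higher and 1146 lower, against 1326 higher and 1498 lower as deposited. Companion genes called were 27 without a variance trend, 0 with a minimum log2 fold change of 1, and 29 to 36 with 1 library left out, against 42. They were 56 with voom (29 higher, 27 lower) and 44 with the same FPKM sum in each library (24 higher, 20 lower). As deposited, 18 were higher and 24 lower.

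The TPM4 share was 59.9% in shTRIM15 and 46.4% in shcontrol by whole reads, and 45.8% in shTRIM15 and 32.99% in shcontrol by median transcript length, the last chosen after seeing the data. Labels give both groups replicate numbers 1 to 3. Deviations of same-numbered libraries correlated by 0.012, 0.009 and 0.013, and those of differently numbered libraries by -0.014 to 0.002. All of these are small, and they do not settle whether the numbers pair the libraries. With the replicate number as a block, 1913 genes, 1 member and 32 companion genes were called, and TPM4 stayed at 0.775.

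Among the members TMOD3 has the fewest reads. Gene-level values do not separate tropomyosin isoforms, RNA was measured without protein, and 3 libraries a group with unstated origin limit what the spread covers.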
